A study of Mus musculus with 6 samples.

Results

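Transcripts of 10 genes, the annexins Anxa1, Anxa2, Anxa3, Anxa4, Anxa5 and Anxa7 and the galectins Lgals1, Lgals3, Lgals8 and Lgals9, were examined in injured mouse spinal cord. They were taken by gene name from a deposited table of 37475 genes, and all 10 were found. Each library came from the cord of a wild-type mouse with a contusion, a blunt impact, at the thoracic level T10, taken 3 days after the injury. Mice of the control group (SCI, 3 libraries) had daily intraperitoneal PBS, the vehicle, and those of the treated group (SCI+Syr, 3 libraries) had daily intraperitoneal syringin at 50 mg/kg, a plant phenylpropanoid glucoside. Both groups were injured and uninjured cord was not analysed here, and the labels give no strain or age. The comparison asks how levels in the injured cord differed with syringin.

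Annexins are cytosolic proteins that bind acidic membrane phospholipids when calcium rises, and they take part in membrane repair, vesicle traffic and the shielding of phosphatidylserine. Galectins are lectins that bind beta-galactoside sugars on glycoproteins, inside cells at damaged vesicles and outside cells at the surface and in the matrix. In injured cord both families are known from phagocytes, reactive astrocytes and vessels, and Lgals3 is a common marker of activated microglia and macrophages.

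The deposited counts summed to between 65579117 and 78843034 per library. Multiples of 4 were over-represented among low counts (a count of 8 was 1.34 times as frequent as 7 and 9 on average), so a count may not be a single fragment, and the totals may overstate the depth. Each of the 10 genes had at least 2700 counts in every library and passed the filter on low counts. All 10 neuron, 10 astrocyte and 10 oligodendrocyte markers examined had counts in every library. Sensory ganglion neurons lie outside the cord, and the mean of their 10 markers, in log2 CPM minus the mean of the 6 libraries, came to 2.68 in PBS library 1, -1.63 in PBS library 2 and -1.97 in PBS library 3, and to 2.48, -2.83 and 1.26 across syringin libraries 1 to 3. Scn10a, Scn11a and Mrgprd of that list were at 0 in at least 1 library. Values below are CPM, counts per 1e+06 counts of a library after TMM scaling (a correction for library composition), or FPKM, the authors' values per transcript length. Differences are given as log2 of syringin over PBS with their standard error (n = 3 per group), from edgeR's quasi-likelihood test. Gene coordinates are as deposited, and their build is uncertain. Genes passed, and are said to have risen or fallen, at an adjusted p under 0.05 (Benjamini-Hochberg over 22114 genes).

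Promoters of the 2 called genes, Anxa2 and Lgals3, are shown because both genes rose. They are 300 bases from RefSeq on GRCm38.p6, from 250 before to 50 after the start of transcription, both on the plus strand. Capitals mark matches, on either strand, to the AP-1 motif TGANTCA, the GC box GGGCGG and the TATA box TATAAA in Anxa2, and to the GC box and the CCAAT box CCAAT in Lgals3.
Anxa2 (chr9:69453433-69453732): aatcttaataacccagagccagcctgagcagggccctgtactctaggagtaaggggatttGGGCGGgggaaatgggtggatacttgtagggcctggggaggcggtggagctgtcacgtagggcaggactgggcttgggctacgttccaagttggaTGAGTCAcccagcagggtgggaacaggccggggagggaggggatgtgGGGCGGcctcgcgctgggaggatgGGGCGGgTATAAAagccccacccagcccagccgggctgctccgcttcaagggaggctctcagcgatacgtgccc
Lgals3 (chr14:47373610-47373909): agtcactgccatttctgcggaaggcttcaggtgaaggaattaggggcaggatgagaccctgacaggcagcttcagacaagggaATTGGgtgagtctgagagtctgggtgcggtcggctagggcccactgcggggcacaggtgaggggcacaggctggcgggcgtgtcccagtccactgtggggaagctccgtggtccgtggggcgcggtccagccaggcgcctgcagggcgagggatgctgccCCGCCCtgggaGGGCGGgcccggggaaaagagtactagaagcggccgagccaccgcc
In Anxa2, TGAGTCA began at base -95 from the start and TATAAA at -17, with GGGCGG at -190, -48 and -24. In Lgals3 GGGCGG lay at 5 on the plus strand and at -7 on the minus strand, and the CCAAT box at -167 on the minus strand. No marked match overlapped another. The table of promoters held 8 of the 10 genes, not Anxa3 and Lgals1. Over these 8 and both strands, TGANTCA matched in Anxa2 alone (7.81% of all 32851 promoters) and GGGCGG in 4 genes, Anxa2, Anxa4, Anxa7 and Lgals3 (35.7%). TATAAA matched in Anxa1 and Anxa2 (13.6%) and CCAAT in Lgals3 and Lgals8 (37.4%). The NF-kB motif GGGNNTTCC matched in Lgals9 (5.82%), the C/EBP motif TTGNGNAA in Anxa4 (13.3%) and the STAT motif TTCNNNGAA in none (8.30%). Anxa4 and Anxa7 had 2 promoters each and counted as matched if either held the motif, while the percentages are shares of promoters. No motif among the 7 searched was in both promoters shown other than the GC box.

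By FPKM, which allows levels of different genes to be set side by side, Lgals1 was the most abundant of the 10 on average (273.6 FPKM over the 6 libraries), followed by Lgals3 (198), Anxa5 (166) and Anxa2 (85.4). Anxa3 (34.5 FPKM) and Lgals9 (33.4 FPKM) came next, then Lgals8 (20.1 FPKM), Anxa1 (20.1 FPKM) and Anxa7 (19.4 FPKM), and Anxa4 was lowest (9.88 FPKM). In the PBS group Lgals1 ranked 111 and Anxa4 5745 among all genes by mean FPKM. Neighbours in this order whose ranges overlapped in both groups were Lgals3 and Anxa5, Anxa3 and Lgals9, Lgals8 and Anxa1, and Anxa1 and Anxa7. Lgals1 lay above Lgals3 in the PBS group without overlap (191.8 to 263.9 against 115.9 to 141 FPKM), but their ranges overlapped in the syringin group (306.6 to 362.9 against 204.4 to 318.2 FPKM).

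**Figure D1:**
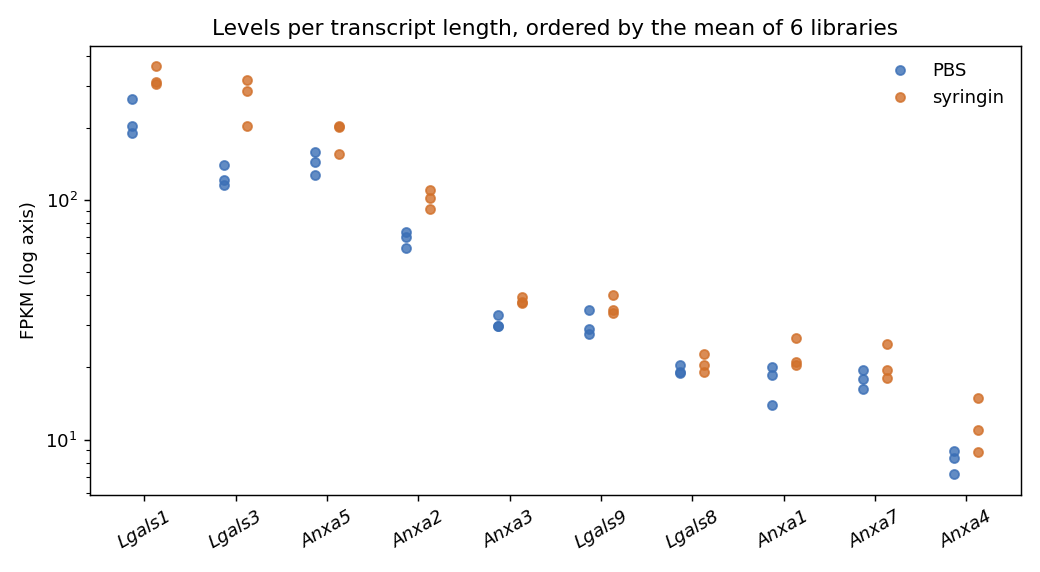
FPKM (log axis) of each of the 10 genes in each library, with PBS libraries in blue and syringin libraries in orange, ordered by the mean of all 6. Lgals1, Lgals3, Anxa5 and Anxa2 sit above the other 6 genes, and the orange points of Lgals3 lie clear of the blue ones.

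The 10 genes were chosen with earlier results of these data known, so their counts and the shares beside them are a description. Of the 10 genes, 2 rose with syringin, Lgals3 and Anxa2, none fell, and 8 did not pass. Over all genes tested 1.62% rose and 3.39% fell. All 10 fold changes were above 0, as were 50.9% of those of all genes. Their median was 0.41 (0.41 for the 6 annexins and 0.44 for the 4 galectins), against 0.01 for all genes. In 5 of the 10 (Lgals1, Lgals3, Anxa1, Anxa2 and Anxa3) the 3 syringin values lay above the 3 PBS values, which held for 14.7% of all genes tested. The lowest value of each gene was in a PBS library, PBS library 3 for 6 genes, PBS library 1 for 3 and PBS library 2 for 1. The highest was in a syringin library, syringin library 2 for 7 genes and syringin library 1 for 3. The share of all genes with such extremes was not counted, so they add no support beyond the fold changes above 0. In bulk tissue, a change in the number of cells of a type and a change in RNA per cell cannot be told apart.

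**Figure D2:**
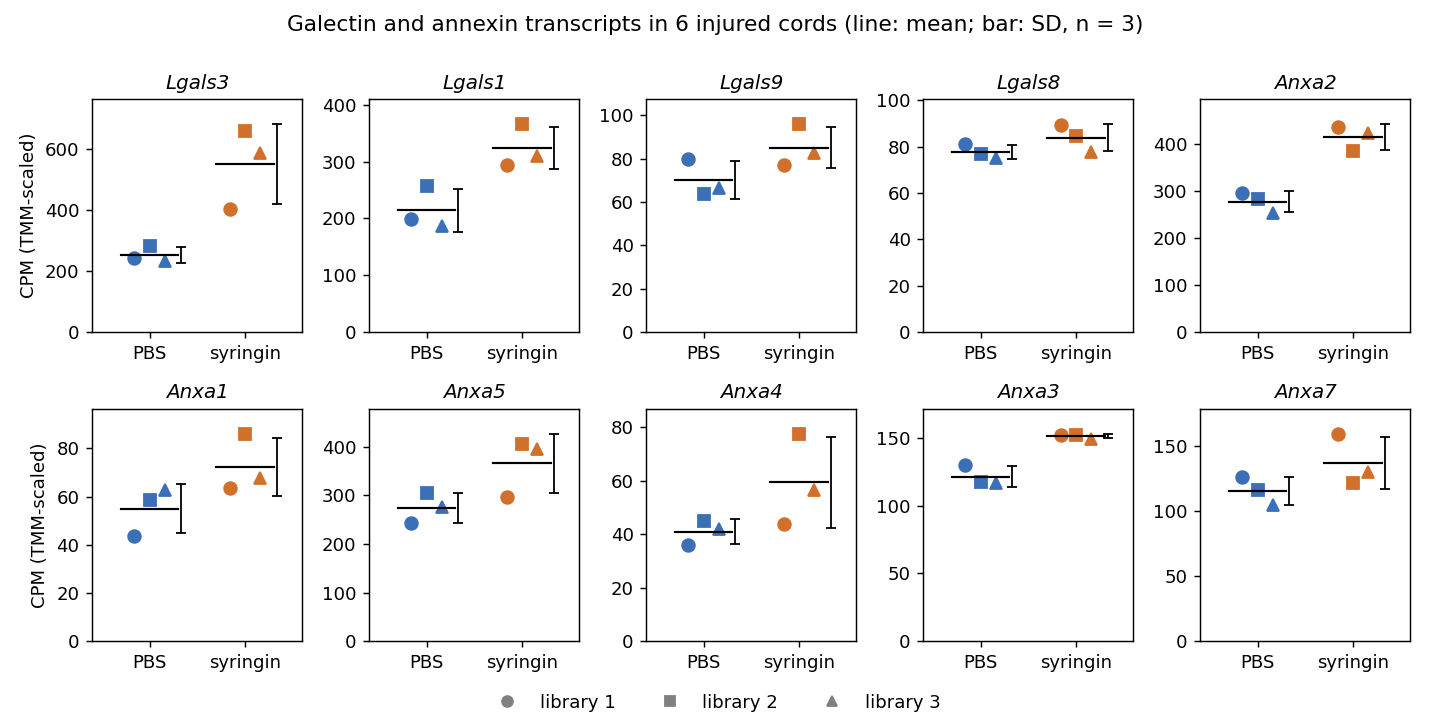
CPM of each gene in each library, 1 panel per gene with its own axis from 0; marker shapes give the library number, the horizontal line the group mean and the bar the SD (n = 3). The groups do not overlap for Lgals3, Lgals1, Anxa2, Anxa1 and Anxa3, and the Anxa1 groups are separated by the gap from 62.9 to 63.4 CPM only.

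Among the galectins, Lgals3 encodes the chimera-type galectin, which joins a single sugar-binding domain to a tail through which it oligomerises, and which is secreted by phagocytes. Lgals3 (ENSMUSG00000050335, chromosome 14, 47605208 to 47623617) had 242, 283 and 232 CPM in PBS libraries 1, 2 and 3 and 405, 659.6 and 588 CPM in syringin libraries 1, 2 and 3. The groups did not overlap, and syringin library 1 was the closest to the PBS libraries. The mean went from 252 ± 27.1 to 551 ± 131 CPM (SD), a 2.18-fold rise (log2 1.13 ± 0.18, adjusted p = 0.0207 by edgeR). The Lgals3 fold change lay above 98.6% of those of all genes.

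Lgals1 encodes a prototype galectin that forms dimers and is made by astrocytes, vessel and immune cells. Lgals1 (ENSMUSG00000068220, chromosome 15, 78810925 to 78814665) had 199, 257 and 186 CPM in the PBS and 295, 366 and 311 CPM in the syringin libraries. The groups did not overlap, although PBS library 2 came near syringin library 1. The means were 214 ± 37.9 and 324 ± 37.1 CPM (log2 0.60 ± 0.14), and the adjusted p of 0.0565 in edgeR did not pass.

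Lgals9 and Lgals8 encode tandem-repeat galectins with a pair of sugar-binding domains; Lgals9 is a ligand of the checkpoint receptor Havcr2 (TIM-3), and Lgals8 marks damaged endosomes. Lgals9 (ENSMUSG00000001123, chromosome 11, 78853800 to 78875772) had 80.0, 63.7 and 66.4 CPM in the PBS and 77.1, 95.8 and 82.5 CPM in the syringin libraries. PBS library 1 lay above syringin library 1, so the Lgals9 groups overlapped (log2 0.28 ± 0.12, adjusted p = 0.211 by edgeR). Lgals8 (ENSMUSG00000057554, chromosome 13, 12454296 to 12479825) had 81.2, 76.7 and 75 CPM in the PBS and 89.2, 84.6 and 77.8 CPM in the syringin libraries. Syringin library 3 lay below PBS library 1, so the Lgals8 groups overlapped as well (log2 0.11 ± 0.09, adjusted p = 0.487 by edgeR). The Lgals8 span overlaps Heatr1 on the opposite strand, so its counts may hold reads of Heatr1 where strand was not used.

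Among the annexins, Anxa2 encodes the partner of S100A10 in a complex at the plasma membrane that binds tissue plasminogen activator and plasminogen. Anxa2 (ENSMUSG00000032231, chromosome 9, 69360902 to 69399077) had 296, 284 and 253 CPM in the PBS and 437, 385 and 423 CPM in the syringin libraries. Every syringin value was well above the highest PBS value, and syringin library 2, the highest for Lgals3, was the lowest of the syringin libraries for Anxa2. The mean went from 278 ± 22.2 to 415 ± 27.2 CPM, a 1.49-fold rise (log2 0.58 ± 0.10, adjusted p = 0.0236 by edgeR). S100a10 had 132, 124 and 96.2 CPM in the PBS and 182, 133 and 173 CPM in the syringin libraries, and did not pass (log2 0.47 ± 0.16, adjusted p = 0.121 by edgeR). The S100a10 groups did not overlap in CPM, but in FPKM syringin library 2 (98.4) lay below PBS library 1 (100.9). The ratio of S100a10 to Anxa2 in FPKM was 1.37, 1.35 and 1.17 with PBS, against 1.28, 1.07 and 1.26 with syringin, overlapping ranges.

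Anxa1 encodes a protein whose secreted form acts on formyl peptide receptors and limits leukocyte entry. Anxa1 (ENSMUSG00000024659, chromosome 19, 20350792 to 20368308) had 43.7, 58.5 and 62.9 CPM in the PBS and 63.4, 86.1 and 67.8 CPM in the syringin libraries. PBS library 1 was low and syringin library 2 high, and the other 4 libraries lay close together (log2 0.40 ± 0.17, adjusted p = 0.196 by edgeR). The receptor genes Fpr1 and Fpr2 were scarce, at 0.955 to 2.95 and 1.21 to 4.32 CPM, with overlapping groups (log2 0.04 ± 0.47 and 0.11 ± 0.46). S100a11, whose protein binds annexin A1, rose from 89.3 ± 13.2 to 141 ± 5.63 CPM (log2 0.66 ± 0.12, adjusted p = 0.0260 by edgeR). The ratio of S100a11 to Anxa1 in FPKM was 12.1, 9.76 and 6.77 with PBS, against 12.9, 9.60 and 11.3 with syringin, overlapping ranges.

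Anxa5 encodes the annexin that binds phosphatidylserine and forms arrays at membrane tears. Anxa5 (ENSMUSG00000027712, chromosome 3, 36503072 to 36530043) had 243, 305 and 276 CPM in the PBS and 296, 406 and 396 CPM in the syringin libraries. Syringin library 1 lay below PBS library 2, while the other syringin libraries lay above all PBS libraries (log2 0.41 ± 0.14, adjusted p = 0.135 by edgeR). Anxa4, known from epithelia and from membrane repair, showed the same order of syringin libraries 1 and 2. Anxa4 (ENSMUSG00000029994, chromosome 6, 86713822 to 86770566) had 35.8, 45.1 and 41.8 CPM in the PBS and 43.8, 77.5 and 56.6 CPM in the syringin libraries. Its groups overlapped through syringin library 1 and its syringin values spread widely (SD 17 CPM against 4.72 CPM; log2 0.54 ± 0.20, adjusted p = 0.155 by edgeR).

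Anxa3, an annexin of neutrophils, phagocytes and vessel cells, had the tightest syringin values of the 10 genes (SD 1.67 CPM). Anxa3 (ENSMUSG00000029484, chromosome 5, 96941198 to 96993825) had 130.4, 117 and 117 CPM in the PBS and 152, 152 and 149.6 CPM in the syringin libraries. The Anxa3 groups did not overlap, but the difference did not pass (log2 0.32 ± 0.08, adjusted p = 0.0660 by edgeR). Anxa7, or synexin, takes part in calcium-dependent membrane fusion. Anxa7 (ENSMUSG00000021814, chromosome 14, 20505328 to 20530201) had 126, 116 and 105 CPM in the PBS and 159, 121 and 129.9 CPM in the syringin libraries. Syringin library 2 lay below PBS library 1, so the Anxa7 groups overlapped (log2 0.24 ± 0.12, adjusted p = 0.287 by edgeR).

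**Figure D3:**
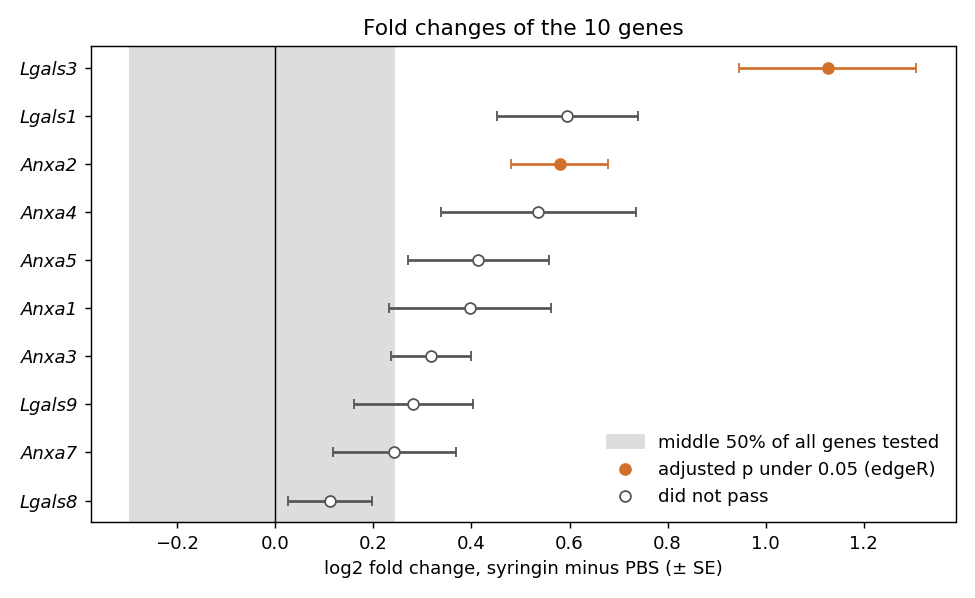
Log2 fold changes, syringin minus PBS, with standard errors (horizontal bars) for the 10 genes; filled orange points passed an adjusted p of 0.05 in edgeR, open points did not, and the grey band holds the middle 50% of all genes tested. All points lie right of 0, Lgals3 at 1.13 farthest, and Lgals8 at 0.11 lies inside the band.

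The calls of Lgals3 and Anxa2 did not hold in every fit that left out a library. In edgeR neither passed without PBS library 1, 2 or 3 or syringin library 3, at adjusted p = 0.0669, 0.0646, 0.137 and 0.0701 for Lgals3 and 0.0563, 0.0855, 0.142 and 0.0702 for Anxa2. Calls fell over the whole table in those fits: 1.16%, 0.806%, 0% and 1.1% of all genes passed, against 5.01% with all 6 libraries. Lgals3 and Anxa2 both passed in edgeR without syringin library 1 (adjusted p = 0.00752 and 0.0268). They also passed without syringin library 2 (adjusted p = 0.0451 and 0.0394), where 1.9% of all genes did. Their fold changes moved little, 0.98 to 1.30 for Lgals3 and 0.52 to 0.63 for Anxa2. Without PBS library 3 no gene of the table was called by edgeR (3449 had an unadjusted p under 0.05) or by limma-voom (3532), whereas DESeq2 called 1455 genes, among them Lgals3 and Anxa2. Without syringin library 1, Lgals1, Anxa4 and Anxa5 also passed (adjusted p = 0.0429, 0.0366 and 0.0315), among 8.55% of all genes. Anxa4 came to 0.30 when syringin library 2 was dropped and to 0.71 when syringin library 1 was. Leaving out a library also moved the values of Anxa1 (0.25 without PBS library 1 or syringin library 2), Anxa7 (0.11 without syringin library 1) and Lgals8 (0.06 without syringin library 1) by over 1.5 times, and none of these was called.

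**Figure D4:**
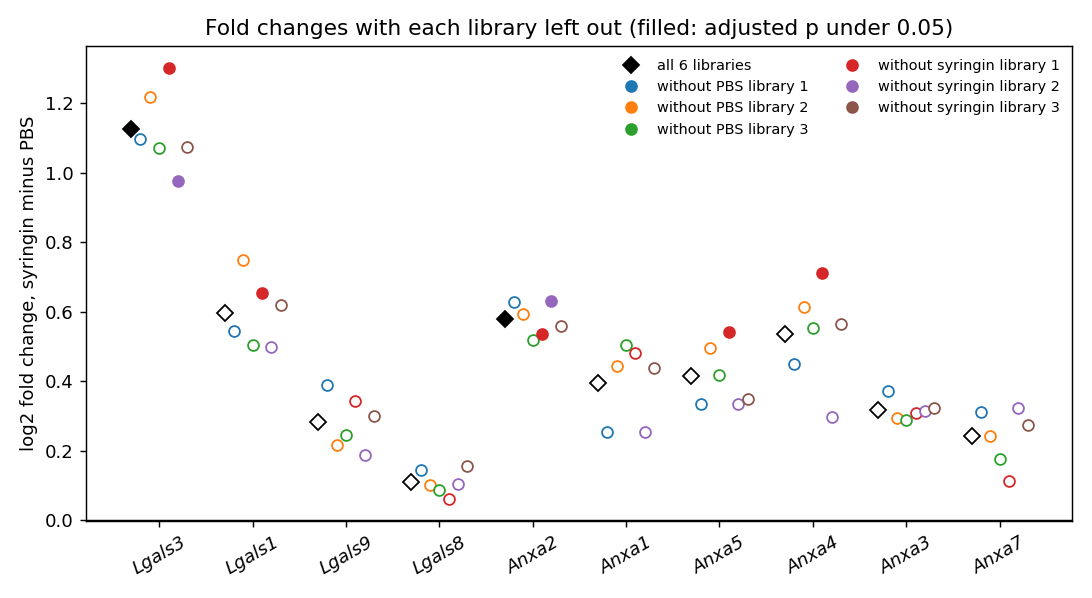
Log2 fold change of each gene in all 6 libraries (black diamonds) and with each library left out (coloured circles); filled symbols passed an adjusted p of 0.05 in edgeR. Every value is above 0, the Lgals3 values run from 0.98 to 1.30, and the circles of Lgals3 and Anxa2 are filled only without syringin library 1 or 2.

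Other annexins had values on both sides of 0, and the other galectins tested had values below 0. Of 6 other annexins, 5 were tested (median 0.10, against 0.01 over all genes). Anxa11, which links RNA granules to lysosomes, rose and none fell, where 1.62% of all genes rose and 3.39% fell. Anxa11 had 29.8, 31.6 and 27.7 CPM in the PBS and 42.2, 43.3 and 37.6 CPM in the syringin libraries, without overlap (log2 0.47 ± 0.10, adjusted p = 0.0420). Anxa11 lost that call with each library left out in turn (adjusted p = 0.0567 to 0.202 in edgeR). Anxa6, the annexin with a doubled core, had 173 ± 2.97 and 185 ± 12.3 CPM (log2 0.10 ± 0.08), and its groups overlapped. Anxa9 had 2.75, 2.78 and 2.32 CPM in the PBS and 3.01, 3.76 and 3.95 CPM in the syringin libraries, without overlap, and did not pass (log2 0.45 ± 0.21, adjusted p = 0.249). Anxa8 had a log2 fold change of -0.47 ± 0.32, with groups that overlapped. Of 5 other galectin genes found, 3 were tested and none passed; Lgals2, Lgals4 and Lgalsl had values of -0.10 ± 0.47, -0.22 ± 0.21 and -0.39 ± 0.18. The deposited table does not list Lgals6.

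Over all genes tested 1.62% rose and 3.39% fell, with a median of 0.01. Partners of annexins, a list chosen with earlier results known, held 3 risen genes of 15, none fell, and the median was 0.37. These were S100a11, the calcium-binding S100a4 (19.4 ± 2.42 to 31.6 ± 2.15 CPM, log2 0.71 ± 0.12, adjusted p = 0.0247 by edgeR) and Plaur, the urokinase receptor (27.5 ± 3.31 to 49.4 ± 8.88 CPM, log2 0.85 ± 0.15, adjusted p = 0.0269 by edgeR). Its ligand gene Plau had a value of 0.88 ± 0.26 (adjusted p = 0.0937 by edgeR), and Plat, the tissue plasminogen activator that annexin A2 binds, 0.06 ± 0.10. S100a4 and Plaur passed only without syringin library 1 or 2 among the 6 fits that left out a library, and S100a11 only without syringin library 1; their highest adjusted p was 0.137, 0.156 and 0.125.

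Galectin ligands and glycan-branching genes held 3 risen genes of 17 tested, none fell, and the median was 0.33. Over all genes tested 1.62% rose, 3.39% fell and the median was 0.01. This list too was chosen with earlier results known. Cd44, a hyaluronan receptor and galectin ligand, had 184, 185 and 148 CPM in the PBS and 322, 294 and 303 CPM in the syringin libraries, far from overlapping (log2 0.83 ± 0.11, adjusted p = 0.0139 by edgeR). Pdpn, the mucin-like podoplanin that galectin-8 binds, rose from 50.0 ± 5.58 to 77.0 ± 6.21 CPM (log2 0.63 ± 0.11, adjusted p = 0.0253 by edgeR), and Mgat2, an enzyme of N-glycan branching, from 54.1 ± 1.69 to 71.3 ± 2.04 CPM (log2 0.40 ± 0.08, adjusted p = 0.0339 by edgeR). Cd44 lost its call without PBS library 3 (adjusted p = 0.0959), and Pdpn and Mgat2 passed only without syringin library 1 (highest adjusted p = 0.138 and 0.188). Lgals3bp, a secreted glycoprotein that galectin-3 binds, had 154, 135 and 115 CPM in the PBS and 114, 159 and 119.6 CPM in the syringin libraries, which overlapped (log2 -0.04 ± 0.15). The FPKM ratio of Lgals3bp to Lgals3 was lower in each syringin library (0.184, 0.157 and 0.133) than in each PBS library (0.415, 0.312 and 0.324), a description without a test. Mgat5, which makes the branches galectins prefer, and the receptors Havcr2 and Trem2 had values of 0.17 ± 0.14, 0.47 ± 0.18 and 0.60 ± 0.29 and did not pass.

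By the gene ontology terms in the deposited table, all 6 annexins carried calcium-dependent phospholipid binding (0.280% of the 17126 tested genes with a term) and all 4 galectins carbohydrate binding (0.981%). The term collagen-containing extracellular matrix covered 8 of the 10, all but Lgals3 and Lgals8, and 1.58% of tested genes. Of the 262 other genes of that term, 14 rose (5.34%) and 14 fell (5.34%), with a median of -0.05. The shares over all genes tested were 1.62% risen and 3.39% fallen. Of the 42 other genes of calcium-dependent phospholipid binding, 1 rose (2.38%) and 3 fell (7.14%), with a median of -0.28. Carbohydrate binding held 164 other genes, of which 8 rose (4.88%) and 9 fell (5.49%), with a median of 0.03.

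Of the marker lists of 10 cell types, 3 held genes that rose, 3 held genes that fell and 4 held none past the threshold. Over all genes tested 1.62% rose and 3.39% fell. Of 15 markers of infiltrating monocytes and macrophages, 6 rose (F10, Clec4d, Thbs1, Arg1, Cd36 and Msr1) and none fell (median 0.97). Ccr2, Ly6c2, Chil3, Fn1, Vcan and Plac8 had overlapping groups and did not pass (adjusted p = 0.229 to 0.506 by edgeR). The summed level of the list was 5189.9 to 6141 CPM in the PBS and 7377 to 17721 CPM in the syringin libraries. Much of it was Spp1, which did not pass (2526 to 3375 and 3616 to 10262 CPM). By library, the mean of that list minus its mean over all 6 ran -0.48, -0.48 and -0.34 for PBS libraries 1 to 3, against 0.22, 0.71 and 0.36 for syringin libraries 1 to 3, and Lgals3 was at -0.61, -0.38 and -0.67 and at 0.14, 0.84 and 0.67. Among the syringin libraries both were lowest in library 1 and highest in library 2. That order was not particular to Lgals3: Lgals1, Lgals9, Anxa1, Anxa4 and Anxa5 had it too, and Lgals8, Anxa2, Anxa3 and Anxa7 did not. Among the PBS libraries the list was highest in library 3, where Lgals3 was lowest. Homeostatic microglia had no member past the threshold of 10 (median -0.37; 983 to 1167 and 747 to 1274 CPM), and neutrophils 1 risen of 10 (median 0.06; 107 to 165 and 73.2 to 193 CPM), their defining marker Ly6g being at 0 in at least 1 library. Neurons held 7 fallen genes of 10 (median -0.85; 3759 to 4894 and 1994 to 2925 CPM) and astrocytes 4 of 10 (median -0.57; 8109.9 to 9619 CPM and 5292 to 7295 CPM). Of Schwann cell markers 2 of 10 fell (median -1.33; 855 to 2502 and 472 to 726 CPM). Endothelial cells held 1 risen gene of 10 (median 0.27; 663 to 747 and 739 to 892 CPM). Oligodendrocytes (median 0.07; 19636 to 21668 and 18881 to 25854 CPM), fibroblasts and meninges (median -0.24; 1671 to 3056 and 1679 to 2651 CPM) and sensory ganglion neurons (median 0.05; 72.8 to 394 and 36.8 to 317 CPM) held none of 10 past the threshold. Spinal macrophages, astrocytes and vessel cells express several of the 10 genes. Apart from a fit with the ganglion list, the part of the marker lists in the differences was not tested. With the ganglion list as a covariate, Lgals1, Anxa1, Anxa3, Anxa4 and Anxa5 passed beside Lgals3 and Anxa2 (adjusted p = 0.0227, 0.0134, 0.0415, 0.0201 and 0.0401 by edgeR). In that fit 7 of the 10 rose and none fell, and 11.8% of all genes passed, 1157 risen and 1452 fallen. The covariate came from the same 6 libraries, and the cause of the added calls was not tested.

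**Figure D5:**
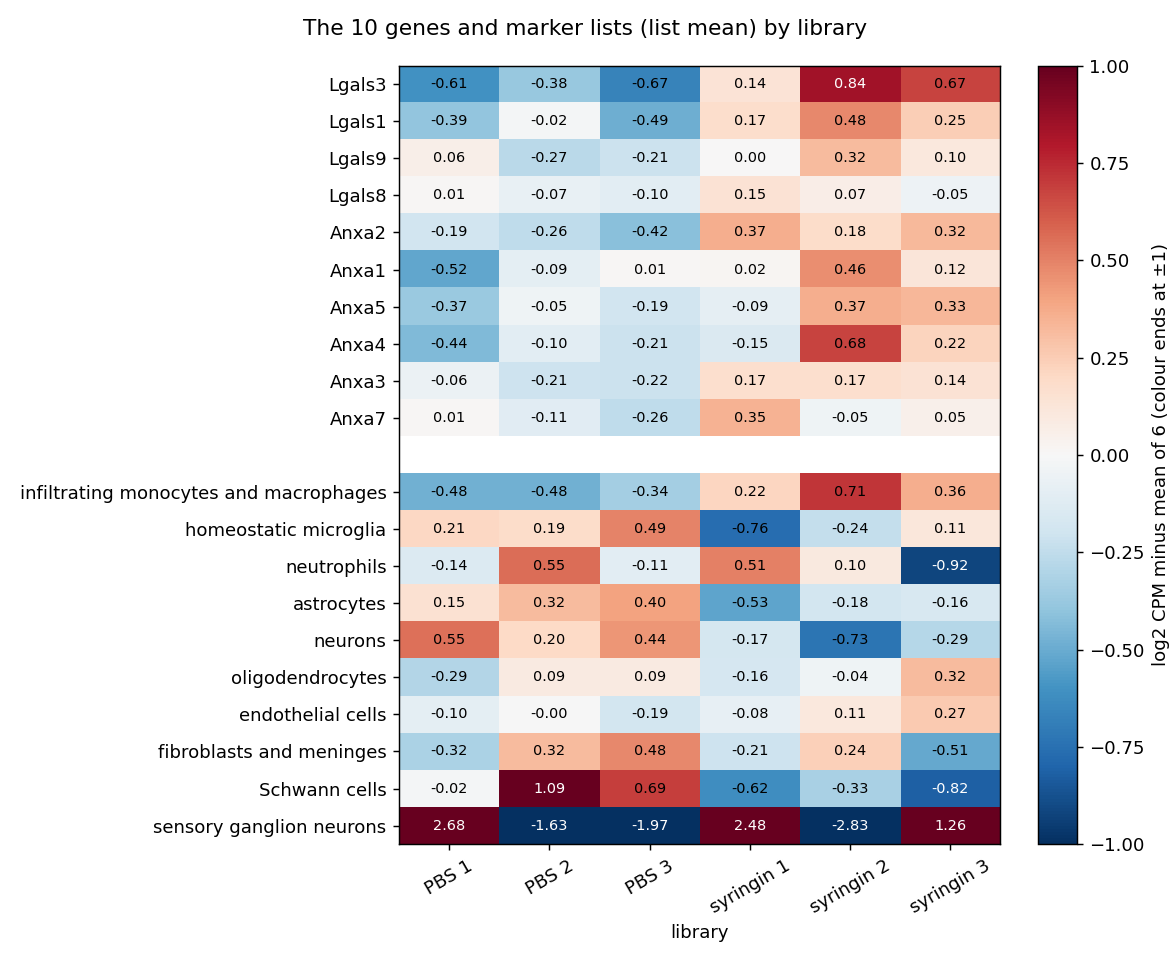
Log2 CPM minus the mean of the 6 libraries for the 10 genes (upper block) and for the mean of each marker list (lower block), by library; red is above and blue below the mean, and colour ends at ±1 while numbers give the values. Lgals3 and the infiltrating monocyte and macrophage list are below 0 in the 3 PBS libraries and above 0 in the 3 syringin libraries, and the ganglion list is high in PBS library 1 and syringin libraries 1 and 3.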

How the data were processed

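Polyadenylated RNA of 6 cords was sequenced from stranded TruSeq libraries, per the labels' protocols. Per the submitters' processing notes, the reads were handled with HISAT2 and StringTie on GRCm38 (mm10), with no versions given. The authors deposited 1 table, which gives each gene's estimated counts and its FPKM in every library; the expected counts as deposited are whole numbers, and the use of strand in counting is not stated there. None of the 10 genes, and only 717 of 34804 shared gene IDs, have the start that a GRCm38 annotation (GENCODE M21) gives, so the build of the printed gene coordinates is uncertain; promoter coordinates are GRCm38.p6.

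Groups follow the treatment named in the sample titles. Counts were filtered with filterByExpr (at least 10 in enough libraries, 15 in total), scaled by TMM (factors of 0.9655 to 1.0292) and fitted with edgeR 4.0.16 (R 4.3.3, quasi-likelihood, robust, treatment as the only term, two-sided). A standard error is the size of the log2 fold change divided by the root of its F statistic. The genes and lists were chosen with earlier results of these data known. The rule for named genes took the 10 genes, up to 4 called genes of each family or partner list, and S100a10, S100a11, Fpr1, Fpr2 and Lgals3bp; other genes named were chosen after their values were seen. No 2 libraries of a group were copies: their chi-square was 31.3 to 147.4 times its degrees of freedom. Counts of this comparison were simulated with changes planted in 200 genes, drawn from those with a mean above 1 CPM. Over 21510 genes, the test found 16.4% of genes planted at log2 0.58, 61.2% of those at 1 and 80.3% of those at 1.5. Of its 116 calls, 11 were false. The real comparison called 1108 genes, far more than the simulated one, so these shares need not hold for it. Alternatives were other scalings and filters, DESeq2 1.42.0, limma 3.58.1 on counts (voom) and on log2(FPKM + 0.1), a replicate block, counts divided by 4, the ganglion list as a covariate and each library left out. Fits of DESeq2 and voom without PBS library 3 were added after seeing the data. Python 3.11.15 and matplotlib 3.10.9 were used for tables and figures.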

Additional observations from a re-analysis of the deposited data

How the results depend on the processing

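All 10 fold changes stayed above 0 in the 21 alternative settings, with a median of 0.32 to 0.51, while the median of all genes stayed between -0.02 and 0.02. Lgals3 and Anxa2 were called in all 13 settings on 6 libraries. DESeq2 called 4 of the 10, adding Lgals1 and Anxa3 (adjusted p = 0.00316 and 0.0105). It called 3188 genes in all, 14.4% of those tested, against 5.01% in the main fit. With the ganglion list as a covariate 7 of the 10 and 2609 genes in all (11.8%) passed. Lgals1 also passed with no filter, with a filter of 1 CPM in 3 libraries and with counts divided by 4 (adjusted p = 0.0451, 0.0484 and 0.0477). In these fits 3.24%, 8.1% and 7.34% of all genes passed. Leaving out 1 library at a time, edgeR called 0 to 5 of the 10 and 0 to 1944 genes in all (0% to 8.55%). Without PBS library 3, limma-voom called 0 of the 10 and 0 genes in all, with 6 of the 10 and 3532 genes at an unadjusted p under 0.05, and edgeR 0 of the 10, with 5 at an unadjusted p under 0.05. With the replicate number as a block 6 of the 10 and 2557 genes in all (11.6%) passed, adding Lgals1, Anxa3, Anxa4 and Anxa5. The labels share only a number: same-numbered libraries correlated at 0.29, 0.12 and 0.05 in their deviations from group means, and 4 of 6 libraries correlated best with their own number. Anxa11 lost its call with library totals only and on FPKM (adjusted p = 0.0604 and 0.0611), and Mgat2 with library totals only (0.0506).

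Signs near 0 turned for 3 uncalled genes. Fpr1 and Fpr2 were at -0.022 and -0.0086 in limma-voom, -0.046 and -0.028 with the replicate block and -0.066 and -0.051 on FPKM, and Fpr1 was at -0.073 with the ganglion covariate. Without PBS library 3 they were at -0.24 and -0.097 by DESeq2 and at -0.37 and -0.25 by limma-voom. With 1 library left out in edgeR, Fpr1 ranged from -0.57 to 0.32, Fpr2 from -0.50 to 0.45 and Lgals3bp from -0.20 to 0.064. The cause of these changes was not tested. In the simulation, which changed 200 genes not matched to the 10 in level, most changes of log2 0.58 were missed. That share need not hold for the 10 genes. Values of that size that did not pass still do not show equal levels.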
